A study of Mus musculus with 6 samples.

Results

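The genes of the Polycomb repressive complexes were examined in leukemia-initiating cells (LICs) of a mouse model of acute myeloid leukemia. The members were 37 mouse genes named by symbol, 23 for subunits of Polycomb repressive complex 1 (PRC1), 11 for PRC2 and 3 for the Polycomb deubiquitinase PR-DUB. All 37 were found among the 27179 genes with values, and all 37 passed the filter on low values that left 12037 genes for testing.

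The cells were YFP+Mac-1+c-Kit+ bone marrow cells of leukemic C57BL/6 mice, given as 8 weeks old. According to the methods of the study, Lin- fetal liver cells of Asic3+/+ (WT) or Asic3-/- (Asic3-null) mice received a retrovirus with the MLL-AF9 fusion oncogene and YFP and were transplanted into irradiated recipients, so that the leukemia cells of both groups carried MLL-AF9. Total RNA was sequenced from 3 libraries with the Asic3-null label and 3 with the WT label, called null-labelled and WT-labelled from here on, each with 1947168 to 2381861 reads as inferred from the values. The labels do not say whether the libraries came from separate mice, and p values then measure only the spread between these libraries. Levels are RPKM, reads scaled by gene length and by the reads of the library, and can be compared between genes because they are per length.

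Polycomb complexes keep developmental genes silent by marking histones. PRC2 methylates histone H3 through the enzymes EZH1 or EZH2, and PRC1 ubiquitinates histone H2A through RING1 or RNF2, held by 1 of 6 PCGF proteins. Canonical PRC1 carries a CBX protein that reads the PRC2 mark, variant PRC1 carries RYBP or YAF2 in its place, and PR-DUB removes the ubiquitin again. In blood, BMI1 is known for the self-renewal of normal and leukemic stem cells, and MLL-AF9 leukemia in mice is known to depend on Polycomb subunits.

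The labels had 2 limits that bear on every direction given here. Asic3 itself had 6.60 ± 2.51 RPKM in the null-labelled libraries and 1.17 ± 0.71 RPKM in the WT-labelled libraries (SD, n = 3 each), which runs against the labels, and without values per exon this does not check the deletion. Xist had 58.0 ± 12.9 against 0.036 ± 0.019 RPKM (SD, n = 3 each), and no null-labelled library held a read of Eif2s3y, Ddx3y, Kdm5d or Uty on the Y chromosome, so genotype label and the sex of the cells cannot be told apart. Of the sort markers, Itgam (Mac-1) was called lower in the null-labelled libraries (log2 fold change -2.35, adjusted p = 0.00072 from limma), and Kit had 17.6 against 11.1 RPKM (adjusted p = 0.219 from limma). A list of 15 neutrophil granule and late myeloid genes, led by S100a8, summed to 378 to 563 RPKM in the null-labelled libraries and 4595 to 5578 RPKM in the WT-labelled libraries, and 14 of 14 tested genes were called lower. T cell markers, led by Cd5, summed to at most 1.31 RPKM and erythroid markers, led by Hba-a1, to 0.972 to 2.41 against 3.07 to 10.8 RPKM, while Cd79b (43.6 RPKM) led the B cell list and Pecam1 (42.6 RPKM) the endothelial and stromal list. The part of these differences in the results on Polycomb genes was not tested, and in bulk RNA fewer cells of a type and less RNA per cell cannot be told apart.

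In levels per length, the Polycomb genes spanned from the upper end of the tested genes down to the filter. Rbbp4 and Rbbp7, histone-binding proteins of PRC2 that also serve other chromatin complexes, had the highest mean levels of the 37 (87.8 and 85.6 RPKM over the 6 libraries). They were followed by Suz12, the scaffold of PRC2 (51.3 RPKM), Bap1, the deubiquitinase of PR-DUB (35.6 RPKM), Ezh2 (35.2 RPKM) and Eed, which binds the methyl mark (35.0 RPKM). At the low end stood Cbx6 (1.36 RPKM), Cbx2 (1.41 RPKM) and Auts2 (1.60 RPKM), which had between 8 and 35 reads per library. By complex, the median level of the members was 43.3 RPKM for the PRC2 core, 30.9 for PR-DUB, 20.7 for the RING proteins, 17.3 for the PRC2 accessory subunits, 7.99 for variant PRC1 and 7.96 for canonical PRC1, beside 14.4 RPKM over all tested genes. By median, the core subunits of PRC2 were thus the most abundant Polycomb transcripts. The mean levels of Rbbp4 and Rbbp7 lay closer together than the spread of either over libraries, and so did those of Ezh2, Eed and Bap1.

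**Figure D1:**
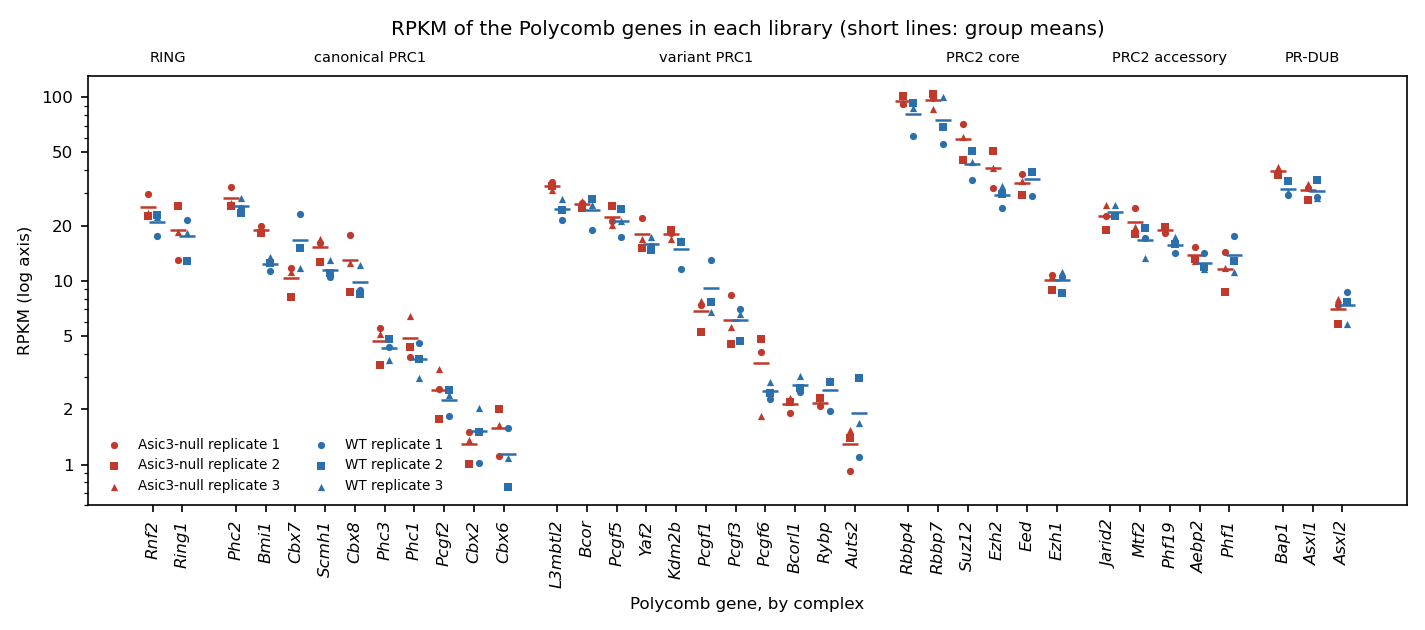
Level of each of the 37 Polycomb genes in each library, in RPKM on a log axis, grouped by complex. Each symbol is 1 library (red, labelled Asic3-null; blue, labelled WT) and short lines are the means of 3 libraries. Levels run from Cbx6 (mean 1.36 RPKM) to Rbbp4 (mean 87.8 RPKM), and red and blue symbols lie apart for 6 genes, of which Bmi1 has the widest gap.

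None of the 37 Polycomb genes was called between the null-labelled libraries and the WT-labelled libraries. With limma on log2(RPKM + 1), 0 of 37 members had an adjusted p under 0.05, where 403 of the 12037 tested genes did (3.35%), and limma-voom on the reads recovered from the values also called 0. At an unadjusted p under 0.05 there were 4 members higher in the null-labelled libraries (Bmi1, L3mbtl2, Ezh2 and Bap1; 10.8% of the members, beside 6.43% of all tested genes) and 1 lower (Cbx7; 2.70%, beside 9.45%). The groups did not overlap for 5 members with higher values (Bmi1, Kdm2b, L3mbtl2, Phf19 and Bap1; 13.5%, beside 11.2% of all tested genes) and for 1 with lower values (Bcorl1; 2.70%, beside 11.4%). The count with higher values is near that over all tested genes, and no test of the members as a set was made.

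The log2 fold change was positive for 26 of 37 members (70.3%), beside 54.5% of all tested genes, and its median was 0.13, beside 0.034 over all tested genes. The highest value was that of Bmi1 (0.58) and the lowest that of Cbx7 (-0.60). Among the 25 members with a mean of at least 10 RPKM the median was 0.25 and 84% were positive, beside 0.055 and 58.3% of all tested genes of that level. By complex, the median log2 fold change was 0.33 for the 6 genes of the PRC2 core, 0.21 for the 10 of canonical PRC1, 0.18 for the 2 RING genes, 0.13 for the 5 PRC2 accessory genes, 0.084 for the 11 of variant PRC1 and 0.019 for the 3 of PR-DUB. These medians, and their order, rested on single libraries. With each library left out in turn they ranged from 0.14 to 0.39 for the PRC2 core (lowest without WT replicate 1, where canonical PRC1, the RING genes and the PRC2 accessory genes lay higher), 0.097 to 0.27 for canonical PRC1 (lowest without Asic3-null replicate 1), 0.096 to 0.23 for the RING genes (lowest without Asic3-null replicate 2), 0.055 to 0.18 for the accessory genes (lowest without Asic3-null replicate 1), -0.033 to 0.12 for variant PRC1 (lowest without WT replicate 1) and -0.039 to 0.13 for PR-DUB (lowest without WT replicate 3).

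The intervals show what size of difference these libraries leave possible. The highest upper bound of the 95% intervals was a 2.02-fold higher value, for Pcgf6, and the lowest lower bound was 0.442 times the WT value, for Cbx7, both on the log2(RPKM + 1) scale. Leaving out 1 library turned the sign of the log2 fold change, or moved it by over 1.5 times, for 31 of the 37 members, and for none of Bmi1, Scmh1, Bcorl1, L3mbtl2, Phf19 and Bap1. For Asxl1 the interval ran from -0.33 to 0.37 on the log2 scale and for Ezh1 from -0.40 to 0.41.

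**Figure D2:**
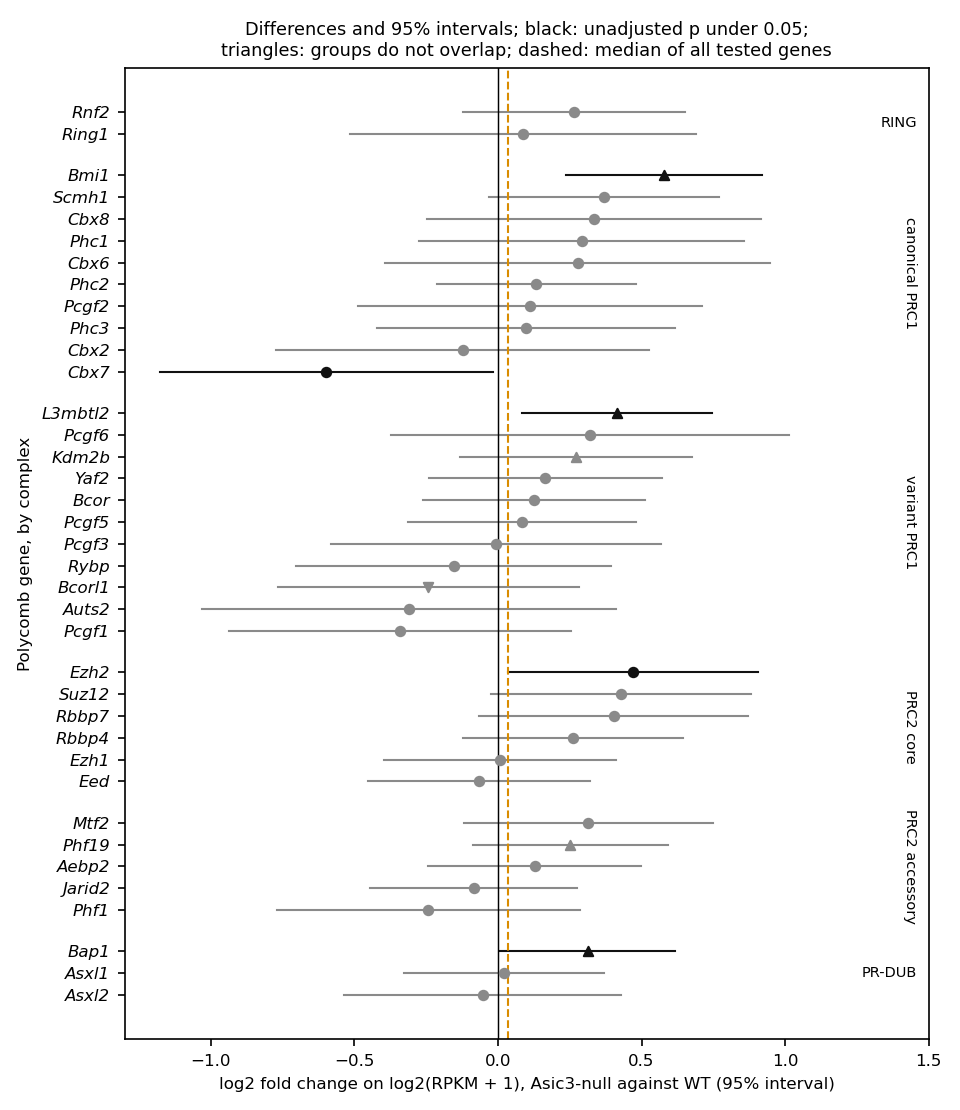
Log2 fold change of each Polycomb gene on log2(RPKM + 1), null-labelled libraries against the WT-labelled libraries, with its 95% interval from limma. Black marks an unadjusted p under 0.05, triangles mark genes whose groups do not overlap, and the dashed line is the median of all tested genes (0.034). Bmi1 has the highest value (0.58) and Cbx7 the lowest (-0.60), and the intervals of 32 genes include 0.

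Bmi1 (Entrez 12151, also named Pcgf4), the PCGF protein of canonical PRC1, had the lowest p of the 37. It had 19.8, 18.1 and 18.8 RPKM in the null-labelled libraries and 11.2, 12.4 and 13.4 RPKM in the WT-labelled libraries. Every null-labelled library lay above every WT-labelled library, and the gap between the groups was wider than the range within either. On the log2 scale the difference was 0.58 (standard error 0.15, 95% interval 0.24 to 0.92, unadjusted p = 0.0040, adjusted p = 0.0848 from limma), so the gene missed the threshold. Its unadjusted p stayed under 0.05 in all 14 alternative fits, the highest being 0.0152. The stretch upstream of its start site is shown because Bmi1 had this lowest p. It holds an E-box (CACGTG), the letters that MYC and related factors can bind, 215 bases before the RefSeq start, and capitals mark the match.
Bmi1, chr2:18676768-18676867, plus strand, GRCm38: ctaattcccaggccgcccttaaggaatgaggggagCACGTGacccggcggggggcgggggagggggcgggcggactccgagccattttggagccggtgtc

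The other PCGF genes, each of which defines its own PRC1, showed no such separation. Pcgf2, which can replace BMI1 in canonical PRC1, had 1.78 to 3.30 against 1.84 to 2.54 RPKM. Pcgf1, the PCGF of the BCOR complex, had 5.28 to 7.80 against 6.77 to 13.1 RPKM (log2 fold change -0.34), with its highest value in WT replicate 1, without which the log2 fold change was -0.080, and with 11 to 24 reads per library. Pcgf3 and Pcgf5, of the complexes that hold AUTS2, had log2 fold changes of -0.0081 and 0.084, and Pcgf6, of the complex with L3MBTL2, had 0.32 with Asic3-null replicate 3 under all the WT-labelled libraries. For Pcgf6 the value was 0.64 without that library and 0.12 without Asic3-null replicate 2. The adjusted p values of these 5 genes from limma lay between 0.567 and 0.993. Between the catalytic RING proteins, Rnf2 had 22.6 to 29.7 against 17.6 to 22.7 RPKM (log2 fold change 0.26) and Ring1 13.0 to 25.6 against 12.9 to 21.5 RPKM (0.086), and the groups overlapped for both. Rnf2 had a log2 fold change of 0.15 without Asic3-null replicate 1 or WT replicate 1, and Ring1 changed sign without Asic3-null replicate 2 or WT replicate 2.

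Among the CBX proteins, which read the methyl mark for canonical PRC1, Cbx7 was the 1 member with an unadjusted p under 0.05 in the lower direction. Cbx7 (Entrez 52609), known in blood for stem cell self-renewal, had 11.8, 8.13 and 11.2 RPKM in the null-labelled libraries and 23.2, 15.1 and 11.7 RPKM in the WT-labelled libraries. WT replicate 1 held the highest value, and WT replicate 3 lay under the highest null-labelled library, so the groups overlapped. Limma gave a log2 fold change of -0.60 (95% interval -1.18 to -0.019, adjusted p = 0.298), and without WT replicate 1 it was -0.34. Cbx8, another reader whose loss is known to impair MLL-AF9 leukemia, had 17.7, 8.74 and 12.5 against 8.88, 8.48 and 12.1 RPKM (log2 fold change 0.33, adjusted p = 0.565 from limma). Only Asic3-null replicate 1 stood clear of the WT range by more than 1 RPKM, and the log2 fold change was 0.10 without it and 0.57 without Asic3-null replicate 2. Cbx2 and Cbx6 stayed near the filter, with 1.01 to 1.5 against 1.02 to 2.03 RPKM and 1.11 to 2.00 against 0.754 to 1.57 RPKM.

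The polyhomeotic proteins, which join PRC1 particles through their SAM domains, and SCMH1, which binds them, had groups that overlapped. Phc2 was the main form, with 25.6 to 32.2 against 23.3 to 28.1 RPKM. Phc1 had 3.83 to 6.43 against 2.97 to 4.58 RPKM and Phc3 3.49 to 5.54 against 3.70 to 4.83 RPKM. Scmh1 had 16.0, 12.6 and 16.9 RPKM in the null-labelled libraries and 10.5, 11.0 and 12.9 RPKM in the WT-labelled libraries, and Asic3-null replicate 2 and WT replicate 3 crossed. Its log2 fold change was 0.37 (unadjusted p = 0.067, adjusted p = 0.350 from limma).

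In variant PRC1, L3mbtl2 (Entrez 214669), a subunit of the PCGF6 complex that compacts chromatin, had 34.5, 32.9 and 31.0 RPKM in the null-labelled libraries and 21.5, 24.3 and 27.7 RPKM in the WT-labelled libraries. The groups did not overlap, and WT replicate 1 lay lowest. Limma gave a log2 fold change of 0.41 (standard error 0.15, 95% interval 0.083 to 0.75, adjusted p = 0.212), and the unadjusted p was under 0.05 in 12 of 14 alternative fits. Kdm2b, the demethylase that brings a variant PRC1 to CpG islands, had 18.3, 18.9 and 16.8 against 11.6, 16.3 and 16.8 RPKM. The lowest null-labelled and the highest WT-labelled library nearly met, and its log2 fold change was 0.27 (adjusted p = 0.497 from limma), or 0.11 without WT replicate 1. Bcor, the corepressor of the KDM2B complex, had 24.8 to 27.3 against 19.0 to 27.9 RPKM.

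Bcorl1, the paralog of Bcor, was the 1 member whose values were lower without overlap, at 1.90, 2.19 and 2.29 against 2.48, 2.60 and 3.03 RPKM, or 27 to 44 reads per library. Its log2 fold change was -0.24 (adjusted p = 0.654 from limma). Yaf2, which stands in for a CBX protein in variant PRC1, was far above its paralog Rybp in level (15.0 to 22.0 and 14.6 to 17.3 RPKM for Yaf2, 2.07 to 2.30 and 1.96 to 2.90 RPKM for Rybp, Asic3-null first). Auts2, which turns its complex toward activation, had 0.927 to 1.55 against 1.10 to 2.97 RPKM. Bcor, Bcorl1 and Rbbp7 lie on the X chromosome, and Xist differed between the groups. Their log2 fold changes of 0.13, -0.24 and 0.40 stand beside a median of 0.085 over the 343 X-linked tested genes other than Xist and Tsix, these 3 included.

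The PRC2 core had a median log2 fold change of 0.33 over all 6 libraries and 0.14 without WT replicate 1, and its summed level had the widest SD of the 6 sets of subunits among the WT-labelled libraries (51.8 RPKM). Ezh2 (Entrez 14056), its main methyltransferase in dividing cells, had 32.1, 50.8 and 40.9 RPKM in the null-labelled libraries and 24.8, 29.8 and 32.9 RPKM in the WT-labelled libraries. Asic3-null replicate 1 lay below WT replicate 3, so the groups overlapped by 1 library. Its log2 fold change was 0.47 (standard error 0.19, 95% interval 0.035 to 0.91, unadjusted p = 0.037, adjusted p = 0.278 from limma), and 0.31 without Asic3-null replicate 2. Ezh1, the form of resting cells, had 8.91 to 10.7 against 8.57 to 11.2 RPKM, a log2 fold change of 0.0073.

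Suz12 (Entrez 52615) had 71.5, 45.3 and 60.8 RPKM in the null-labelled libraries and 35.2, 51.0 and 44.1 RPKM in the WT-labelled libraries. Asic3-null replicate 2 lay within the WT range. Its log2 fold change was 0.43 (unadjusted p = 0.061, adjusted p = 0.336 from limma), and 0.28 without Asic3-null replicate 1. Rbbp7 had 98.7, 104.2 and 86.6 against 55.3, 68.7 and 100.4 RPKM (log2 fold change 0.40) and Rbbp4 had 91.7, 101.5 and 92.4 against 61.1, 93.2 and 87.1 RPKM (0.26). WT replicate 1 was the lowest library for both, well below the other 5 for Rbbp4 and next to WT replicate 2 for Rbbp7. Eed had 38.4, 29.3 and 34.7 against 29.1, 39.1 and 39.6 RPKM, a log2 fold change of -0.066.

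The summed level of the 6 core genes was 343, 340.1 and 326 RPKM in the null-labelled libraries and 216, 290.5 and 315 RPKM in the WT-labelled libraries. WT replicate 1 was the lowest of the 6 libraries for 5 of the 6 core genes and for 15 of all 37 members, beside 2368 of the 12037 tested genes. The same library had the lowest sum of a cell cycle list, 1127 RPKM beside 1571 and 1759.6 in the other WT libraries and 1726 to 1899 RPKM in those labelled Asic3-null. That list, led by Mcm6, had a median log2 fold change of 0.31, with 22 of 24 genes positive (91.7%, beside 54.5% of all tested genes) and 0 called by limma (beside 3.35%). At an unadjusted p under 0.05 there were 2, both higher (8.33%, beside 6.43%). Without WT replicate 1 the median of that list was 0.13. Without WT replicate 1 the log2 fold changes were 0.36 for Ezh2, 0.29 for Suz12, 0.21 for Rbbp7 and 0.077 for Rbbp4. Without WT replicate 1, too, Bmi1 was the only member with an unadjusted p under 0.05 (log2 fold change 0.52, unadjusted p = 0.013, adjusted p = 0.216 from limma), and 25 of 37 members were positive, beside 56.6% of all tested genes. Without WT replicate 3 the log2 fold change of Rbbp7 was 0.63. The part of the cell cycle genes in these differences was not tested.

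**Figure D3:**
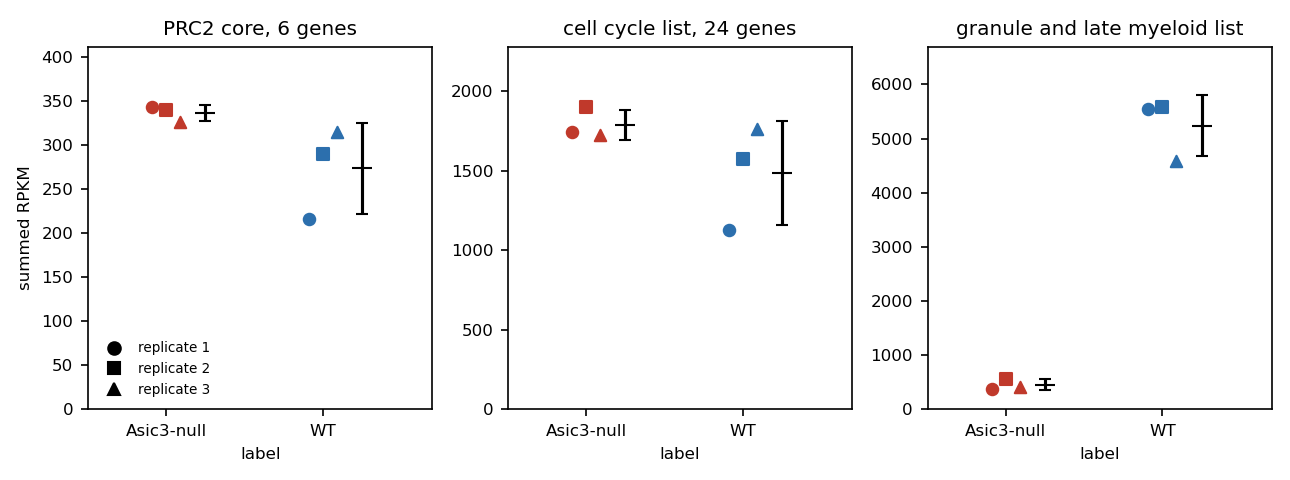
Summed RPKM of the 6 PRC2 core genes, of 24 cell cycle genes and of 15 neutrophil granule and late myeloid genes in each library, by label. Symbols are libraries and bars are the mean ± SD of 3. WT replicate 1 is lowest for the PRC2 core (216 RPKM) and for the cell cycle list (1127 RPKM), while the granule list lies at 378 to 563 RPKM against 4595 to 5578 RPKM.

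E2F factors, which drive genes of DNA replication, are known to bind the promoters of PRC2 genes, and the promoter windows were therefore searched for 4 E2F words (TTTCCCGC, TTTGGCGC, TTTCGCGC and TTTGCCGC, on both strands). Windows from RefSeq on GRCm38.p6 ran from 250 bases before to 50 bases after a start site and were given for 32 of the 37 members, in 45 windows, and not for Yaf2, Rybp, Pcgf1, Cbx2 and Auts2. An E2F word was found for 3 members, Ezh2, Suz12 and Phf19, in 6.67% of the members' windows, beside 4.26% of the windows of tested genes and 2.26% of all windows. The matches are shown because Ezh2 and Suz12 are the enzyme and scaffold of PRC2, and a stretch of Ezh1 without a match stands beside them. No E2F word was found for Eed, Rbbp4 and Rbbp7 of the PRC2 core either, with log2 fold changes of -0.066, 0.26 and 0.40. Whether a match goes with a difference between the groups was not tested. Capitals mark the match, which begins at base 4 of the transcript in Ezh2, 219 bases before the start in Suz12 and 208 bases before it in Phf19.
Ezh2, chr6:47595020-47595049, minus strand, GRCm38: cgatggcgattgggttgctgcgTTTGGCGC
Suz12, chr11:79992856-79992955, plus strand, GRCm38: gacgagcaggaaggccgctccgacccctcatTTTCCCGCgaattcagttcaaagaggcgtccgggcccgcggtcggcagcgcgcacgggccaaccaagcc
Phf19, chr2:34914167-34914196, minus strand, GRCm38: cgtcaataattcGCGGGAAAacgcgaaaaa
Ezh1, chr11:101226464-101226563, minus strand, GRCm38: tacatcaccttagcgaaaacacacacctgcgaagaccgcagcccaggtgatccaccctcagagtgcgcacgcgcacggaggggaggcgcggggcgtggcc
The stretches of Ezh2 and Phf19 lie within the RefSeq span of their own gene, and those of Suz12, Bmi1 and Ezh1 lie upstream of it. A match describes the letters only, and no binding was measured.

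Other words were searched in the same way on both strands, and no word contains another. CACGTG was in 22.2% of the members' windows, those of Bmi1, Bap1, Rbbp4, Cbx8 and 6 other members, beside 10.4% of the windows of tested genes and 7.15% of all windows. GGGCGG, the word of Sp factors, was in 68.9%, beside 62.5% and 35.7%. CCAAT, the word of NF-Y, was in 37.8%, beside 38.5% and 37.4%, and TGACGTCA, the word of CREB, in 2.22% (Cbx8), beside 3.10% and 1.79%. TGACAG, the word of MEIS factors, was in 8.89% (Ezh1, Ezh2, Jarid2 and Pcgf3), beside 16.8% and 19.2%. These shares rest on 45 windows, and no difference between them was tested. The median number of CpG dinucleotides per window was 23 for the members, 21 for tested genes and 7 over all windows.

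Of the accessory subunits that steer PRC2, MTF2, PHF1 and PHF19 (the Polycomb-like proteins) form PRC2.1 and JARID2 and AEBP2 form PRC2.2. Phf19 had 18.1, 19.6 and 19.0 RPKM in the null-labelled libraries and 14.1, 15.9 and 17.3 RPKM in the WT-labelled libraries. Its groups did not overlap and WT replicate 1 lay lowest, and its log2 fold change was 0.25 (limma, adjusted p = 0.448). Mtf2 had 18.1 to 24.8 against 13.2 to 19.3 RPKM (log2 fold change 0.31) and Phf1 8.64 to 14.4 against 11.1 to 17.6 RPKM (-0.24), with an interval from -0.77 to 0.28 that spans 0. Jarid2 had 19.0 to 25.7 against 22.6 to 25.8 RPKM (-0.084) and Aebp2 12.9 to 15.3 against 11.6 to 14.1 RPKM (0.13).

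In PR-DUB, Bap1 (Entrez 104416), the deubiquitinase that opposes PRC1, had 38.9, 37.8 and 41.8 RPKM in the null-labelled libraries and 29.5, 35.1 and 30.5 RPKM in the WT-labelled libraries. The groups did not overlap, and WT replicate 2 lay nearest to the null-labelled libraries. Limma gave a log2 fold change of 0.31 (standard error 0.13, 95% interval 0.0065 to 0.62, adjusted p = 0.302), and the unadjusted p was under 0.05 in 5 of 14 alternative fits. Its cofactors, of which Asxl1 is known from myeloid malignancy, showed no such gap. Asxl1 had 27.6 to 33.6 against 28.1 to 35.6 RPKM (log2 fold change 0.019) and Asxl2 5.81 to 8.00 against 5.80 to 8.72 RPKM (-0.053).

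Because many subunits exclude each other within a complex, the share of each paralog in the summed RPKM of its group was compared over libraries, in 13 shares. Ezh2 made up 79.8 ± 5.1% of Ezh1 and Ezh2 in the null-labelled libraries and 74.2 ± 3.7% in the WT-labelled libraries (SD, n = 3 each). Bmi1 made up 31.2, 30.1 and 32.8% of the 6 PCGF genes against 21.3, 22.9 and 25.2%. The groups did not overlap for Bmi1, for Bmi1 with Pcgf2 (35.7 ± 2.8% against 27.4 ± 2.4%) and for Bcor among Bcor and Bcorl1 (92.5 ± 0.8% against 89.8 ± 1.5%; SD, n = 3 each). For these 3 the exact permutation test gave a two-sided p of 0.10, which is the lowest possible for groups of 3, and an adjusted p of 0.371 over the 13 shares.

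Within the 4 CBX members, Cbx8 made up 55.1, 44.0 and 46.9% against 25.6, 32.8 and 45.0%, and Cbx7 39.8 ± 2.7% against 56.2 ± 11.9% (SD, n = 3 each). WT replicate 3 lay between the Asic3-null libraries for Cbx8, so the groups overlapped, and the exact permutation test gave two-sided p = 0.20 (adjusted p = 0.371). The remaining shares overlapped between the groups. Over the 6 libraries, Rnf2 made up 56.0% of the RING pair, Phc2 75.2% of the PHC genes, Rybp 12.5% of Rybp and Yaf2, Rbbp4 50.9% of the RBBP pair, the Polycomb-like genes 57.3% of the PRC2 accessory genes and Asxl1 81.1% of the ASXL pair.

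**Figure D4:**
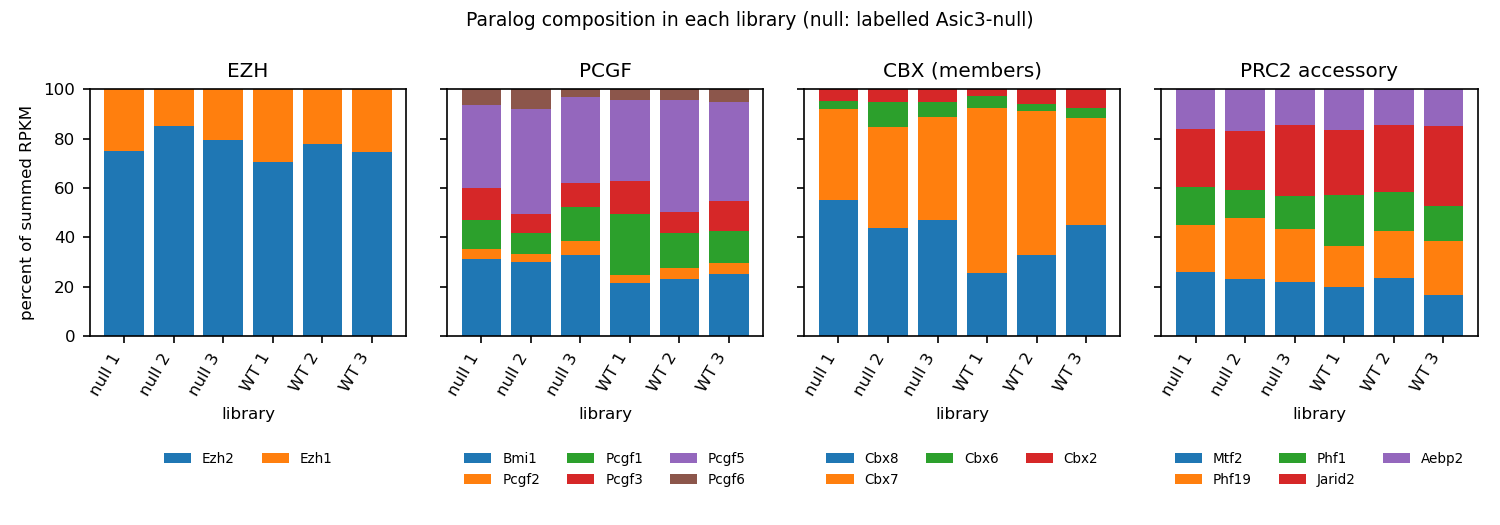
Percent of summed RPKM that each paralog takes in its group (EZH, PCGF, the 4 CBX members and the PRC2 accessory genes), 1 bar per library, from 0 to 100%. Bmi1 takes 30.1 to 32.8% of the PCGF sum in the null-labelled libraries and 21.3 to 25.2% in the WT-labelled libraries, and Ezh2 takes 70.4 to 85.1% of the EZH sum over the 6 libraries.

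The partners of Polycomb complexes and the enzymes that oppose them were also read, from a list of 37 genes outside the members, of which 34 were tested. None was called by limma, beside 3.35% of all tested genes. At an unadjusted p under 0.05 there was 1 higher (2.94%, beside 6.43%) and 1 lower (2.94%, beside 9.45%). Yy1, a DNA-binding factor related to a Drosophila Polycomb group protein, had 76.9, 74.1 and 66.1 against 52.4, 53.0 and 62.2 RPKM (log2 fold change 0.37, adjusted p = 0.213 from limma), without overlap. L3mbtl3, a reader of methylated histones, had 4.43, 5.78 and 7.49 against 9.76, 8.43 and 8.05 RPKM (log2 fold change -0.52, adjusted p = 0.287 from limma), also without overlap. Wdr5, shared by a variant PRC1 and the MLL complexes, had 81.9, 70.9 and 79.3 against 56.6, 64.3 and 69.8 RPKM (log2 fold change 0.28, adjusted p = 0.338 from limma), and its groups did not overlap. Of the 34 genes, 4 lay higher without overlap (11.8%, beside 11.2% of all tested genes) and 2 lower (5.88%, beside 11.4%). The median log2 fold change of the list was 0.060, beside 0.034 over all tested genes, with 20 of 34 genes positive (58.8%, beside 54.5%). With each library left out in turn the median ranged from -0.033 (without WT replicate 3) to 0.11 (without Asic3-null replicate 2).

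Apart from 1 gene, the textbook targets of Polycomb silencing examined here had a mean under 1 RPKM over the libraries. The list of 32 such genes held Pax, Sox, Nkx and posterior Hoxc and Hoxd genes, but no Hoxa gene. Of the 32, 23 had no read in any library and 1 passed the filter. That gene was Cdkn2a, which encodes the cell cycle inhibitors INK4A and ARF and is a known target of BMI1, with 1.52, 2.59 and 2.62 RPKM in the null-labelled libraries and 2.09, 10.8 and 6.32 RPKM in the WT-labelled libraries. These values rest on 4 to 24 reads per library. WT replicates 2 and 3 were above all other libraries and WT replicate 1 was not, so the groups overlapped (log2 fold change -1.01, unadjusted p = 0.050, adjusted p = 0.315 from limma). The value moved with single libraries, to -1.54 without WT replicate 1 (unadjusted p = 0.0012, adjusted p = 0.061 from limma) and to -0.57 without WT replicate 2 (unadjusted p = 0.198). The next in level were Olig2 (0.822 RPKM) and Nkx6-1 (0.235 RPKM), which had at most 10 reads in a library. For a gene of 2 kb, 1 read amounts to 0.210 to 0.257 RPKM here, and levels below that were not detectable.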

How the data were processed

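The authors deposited RPKM values per gene for each library. Their processing notes name CASAVA 1.8.2, TopHat2 2.0.12 and the build GRCm38. The counting tool and gene annotation are not given in the sources used here, and the library kit does not mark strand, so reads of overlapping genes cannot be told apart. Gene symbols came from RefSeq (GRCm38.p6). Whole reads were recovered from the RPKM values for 16825 of 16825 genes above 0, within 0.0001 reads, and intervals from them would cover counting error only.

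The test was limma 3.58.1 (R 4.3.3) on log2(RPKM + 1), for genes whose mean over the libraries reached 1 RPKM (intensity trend, label as the only term, Benjamini-Hochberg over 12037 genes, threshold 0.05). The fold changes understate those of low genes. Paralog shares were compared by exact permutation. All members were named, and 3 partners and 3 targets by lowest p and highest level, with 1 result not reported here. The members and lists were chosen with earlier results of these data known. The steps were tested on simulated data. The tables were made with Python 3.11.15, numpy 2.4.6 and pandas 2.3.3. Alternatives were another pseudocount (0.1), no filter, a minimum of 5 RPKM, median-ratio scaling, quantile normalization, no trend, limma-voom on recovered reads, the replicate number as a block and each library left out.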

Additional observations from a re-analysis of the deposited data

How the results depend on the processing

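Over 14 alternatives, 0 of the 37 Polycomb genes and 0 partners were called in any fit, and 25 members kept the sign of their log2 fold change in every fit. The median of the members lay between 0.10 and 0.17, and 23 to 28 of 37 members were positive when each library was left out. The number of all genes called was 403 and was 246 with the replicate number as a block, and 203 to 293 when each library was left out, fewest without WT replicate 1. Replicate numbers did not pair the libraries (correlations of same-numbered deviations 0.059, -0.059 and -0.12), and the block called 0 members. The number of members with an unadjusted p under 0.05, counted after seeing the data, was 5 in the main fit. It was 6 with limma-voom on recovered reads and 2 with no intensity trend. It was 1 to 5 when each library was left out, with 3 left when Asic3-null replicate 1 or 3 was dropped and 1 (Bmi1) when WT replicate 1 was. The share of all tested genes at that p is given for the main fit only, so these counts have no background. The number of members without overlap was 6 under median-ratio scaling (4 higher, 2 lower) and 5 under quantile normalization (4 higher, 1 lower). The shares of all tested genes without overlap are given for the main values only (11.2% higher, 11.4% lower). Pcgf3 was 0.034 with quantile normalization and Ezh1 -0.0056 with median-ratio scaling. With each library left out in turn, the log2 fold change ranged from -0.14 to 0.32 for Ring1, -0.038 to 0.28 for Pcgf2, -0.27 to 0.021 for Cbx2, -0.0071 to 0.26 for Phc3, -0.22 to 0.16 for Pcgf3, -0.042 to 0.20 for Pcgf5, -0.033 to 0.23 for Bcor, -0.093 to 0.087 for Ezh1, -0.21 to 0.035 for Eed, -0.18 to 0.024 for Jarid2, -0.039 to 0.13 for Asxl1 and -0.20 to 0.064 for Asxl2. The difference in shares, in percentage points, ranged from -3.08 to 8.28 for Rnf2, -2.81 to 1.15 for Phc2, -5.33 to 0.227 for Rbbp4 and -1.02 to 2.14 for Asxl1. The cause of these shifts was not tested. Depth limits the low members. Cbx2, Cbx6 and Pcgf1 rest on 8 to 26 reads per library, Pcgf6 on 9 to 24 and Pcgf2 on 11 to 22.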
